A study of Neurospora crassa with 16 samples.

Results

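The genes described here are the 9 loci of the filamentous fungus Neurospora crassa that encode cellulases of glycoside hydrolase families GH6, GH7, GH5 and GH45. They were chosen as a list of loci, with earlier results of these data known, and are 9 of the 9730 genes in the deposited table. That table marks 23 genes as cellulases, and the other 14 of these encode lytic polysaccharide monooxygenases of family AA9. RNA was sequenced from mycelia in batch cultures started with conidia, with Avicel (crystalline cellulose) as carbon source and constant light. The 2 strains compared were WT (wild type) and △stk-12, named for deletion of the serine/threonine kinase gene stk-12 and called the mutant below. Each was harvested after 12 h, 1 day, 3 days and 5 days (12h, 1d, 3d and 5d), which gave 8 groups of 2 libraries and 16 libraries in all.

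The strain labels come with limits that touch every comparison of genotypes. Reads of stk-12 were fewer in the mutant but not absent, with log2 fold changes of -1.39, -2.03, -1.52 and -1.21 at the 4 times. Every mutant library held 0 reads of matA-1, a gene of mating type A, and every WT library at least 350. Differences that go with stk-12 and differences that go with the mating type cannot be told apart in this design, and how many independent isolates the mutant represents is not given in the sources used here.

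Cellulose is broken down by enzymes that act together on the same chain. Endoglucanases cut inside the chain and open new ends, and cellobiohydrolases run along the chain from those ends and release the disaccharide cellobiose, GH7 enzymes from the reducing end and GH6 enzymes from the non-reducing end. Lytic polysaccharide monooxygenases cut crystalline surfaces by oxidation, and beta-glucosidases split cellobiose to glucose. In N. crassa many of these genes are switched on by cellulose through the transcription factors CLR-1 and CLR-2 and are held down by the carbon repressor CRE-1. A family 1 carbohydrate-binding module (CBM1) anchors some of the enzymes to crystalline cellulose.

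The deposited annotation names 5 of the loci as exoglucanases, the older word for cellobiohydrolases, and 4 as endoglucanases. The cellobiohydrolases are cbh-1 (NCU07340) and gh7-4 (NCU05104) of GH7 and gh6-2 (NCU09680), gh6-3 (NCU07190) and gh6-1 (NCU03996) of GH6. The endoglucanases are gh5-1 (NCU00762) of GH5, gh7-1 (NCU05057) and gh7-2 (NCU04854) of GH7 and gh45-1 (NCU05121) of GH45. A CBM1 is annotated in 4 of the products, those of cbh-1, gh6-2, gh5-1 and gh45-1, and in none of the other 5. The gene lengths implied by the deposited values ran from 1007 bases (gh45-1) to 2920 bases (cbh-1). They are multiples of 3 for 5 genes (gh7-4, gh6-2, gh6-3, gh6-1 and gh7-1) and not for the other 4, and which parts of a gene they count is not given in the sources used here. In the reference assembly NC12 the loci are spread over 4 chromosomes, with gh7-4, gh6-1, gh7-1 and gh45-1 on chromosome VI, cbh-1 and gh7-2 on IV, gh6-2 and gh6-3 on V and gh5-1 on I. There gh6-3 overlaps a gene that was not analysed here (NCU15135), and the strand used in counting is not given in the sources used here, so its level may include reads of that neighbour.

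Reads assigned to genes ran from 14946389 to 26466759 per library. The 9 cellulases took 6.45 ± 0.336, 5.08 ± 0.0023, 1.71 ± 0.0590 and 2.05 ± 0.251% of them in WT at 12h, 1d, 3d and 5d (mean ± SD, n = 2 libraries). In the mutant the shares were 6.04 ± 0.10, 4.94 ± 0.286, 6.36 ± 0.518 and 1.23 ± 0.0408%. The replicates of WT at 5d were the least alike, with a chi-square per degree of freedom of 22.2 between their counts against 3.91 to 17.5 in the other groups. The labels do not say that replicates were separate cultures, so p-values measure the spread between these libraries, which may be technical.

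Levels below are RPKM, reads scaled by gene length and library size, here with library sizes corrected by TMM (trimmed mean of M values), so they can be compared between libraries and, as far as the gene lengths are counted alike, between genes. Values are given as replicates 1 and 2. In a mixed culture, fewer hyphae of a kind and less RNA per hypha cannot be told apart.

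The processive cellobiohydrolases cbh-1 and gh6-2 were high from the start and shared the same high and low groups, although from 12h to 1d their values moved in opposite directions. cbh-1, the main GH7 cellobiohydrolase, stood at 9695 and 8908 RPKM in WT at 12h, 8148 and 8359 at 1d, 2772 and 2553 at 3d and 2923 and 2236 at 5d. In the mutant it stood at 9413 and 9052, then 7650 and 7067, then 9556 and 11392, then 1662 and 1755. The libraries thus fell into a high set, which held both strains at 12h and 1d and the mutant at 3d, and a low set with WT at 3d and 5d and the mutant at 5d. The mutant at 3d (10474 ± 1299) and WT at 12h (9302 ± 556) overlapped at the top, and the mutant at 5d lay below every other group.

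gh6-2, the GH6 cellobiohydrolase with a CBM1, stood at 9122 and 8235 RPKM in WT at 12h, 10684 and 10760.0 at 1d, 2409.6 and 2289 at 3d and 2359 and 1804 at 5d. The mutant held 8379 and 8385, 9894 and 9184, 8491 and 9397, and 1345 and 1410.2 RPKM at the same times. The same 5 groups as for cbh-1 were high and the same 3 were low, and no library of the high set overlapped the low set. This split was not particular to cbh-1 and gh6-2. gh6-3, gh5-1, gh7-2 and gh45-1, described below, fell into the same high and low sets without overlap. The sets were read from cbh-1 in these data, and how many of all genes split alike was not counted. When genes were ranked by RPKM within each library, gh6-2 was the highest of all genes in both mutant libraries at 1d and second in both WT libraries.

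gh6-3, a GH6 cellobiohydrolase without CBM1, was the most abundant of the 9 by RPKM at 12h and had the deepest drop in WT. It stood at 13803 and 12063 RPKM in WT at 12h, 6663 and 6598 at 1d, 389 and 342 at 3d and 1334 and 1303 at 5d. The mutant held 10588 and 10015 RPKM, 5537 and 4735, 5418 and 6508, and 1290.0 and 1472. The WT libraries at 3d lay below all others, and the strains overlapped at 5d. From second of all genes in both WT libraries at 12h, gh6-3 went to between 134th and 148th at 3d and back to between 18th and 23rd at 5d.

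A second pattern was seen in gh7-4, a GH7 cellobiohydrolase, and gh6-1, a GH6 cellobiohydrolase, both without CBM1. They were almost silent early and rose late. gh7-4 stood at 2.04 and 2.26 RPKM in WT at 12h, 2.40 and 2.96 at 1d, 34.3 and 33.7 at 3d and 389 and 324 at 5d. In the mutant it stood at 2.27 and 2.63, 5.06 and 3.99, 198 and 224, and 84.0 and 93.7. Its highest group, WT at 5d, was 166-fold above its lowest, WT at 12h, which was the widest range of the 9 genes.

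gh6-1 was the lowest of the 9 in every group. WT held 1.00 and 1.21, 0.731 and 0.549, 0.796 and 1.10, and 24.8 and 15.2 RPKM, and the mutant 1.01 and 0.738, 0.813 and 0.676, 25.3 and 31.6, and 14.7 and 17.6 RPKM. Only WT at 5d and the mutant at 3d and 5d stood out, and the other 5 groups overlapped one with the next in order of their means. Its early values rest on few reads, 9 to 31 per library in those 5 groups against 346 to 784 in the other 3, so an early difference in gh6-1 was detectable only if large.

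Among the endoglucanases, gh5-1 was the most abundant at 12h and 1d. It stood at 3895 and 3466 RPKM in WT at 12h, 2648 and 2545 at 1d, 593 and 527 at 3d and 615 and 497 at 5d. The mutant held 3498 and 3533, 2601 and 2383, 1733 and 1976, and 156 and 174 RPKM. The strains overlapped at 12h and 1d and were apart at 3d and 5d, in opposite directions.

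gh7-1, a GH7 endoglucanase, varied least, 5.24-fold between its highest and its lowest group. WT held 1649 and 1449 RPKM at 12h, 1182 and 1115 at 1d, 868 and 842 at 3d and 1262 and 1096 at 5d, and the mutant 1248 and 1310.5, 957 and 814, 2122 and 2338, and 421 and 430 RPKM. It was the third most abundant of the 9 in WT at 3d and the fifth at 12h. The mutant at 3d was its highest group and the mutant at 5d its lowest, with no overlap to the next group in either case.

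gh7-2, the other GH7 endoglucanase, was much less abundant. It stood at 309 and 282 RPKM in WT at 12h, 142 and 141 at 1d, 26.9 and 25.8 at 3d and 45.6 and 38.1 at 5d, and in the mutant at 237 and 206, 151 and 125, 160 and 179, and 20.6 and 20.0. gh45-1, the small GH45 endoglucanase, stood at 829 and 766 RPKM, 817 and 851, 255 and 218, and 417 and 347 in WT, and at 600 and 629, 836 and 718, 534 and 656, and 63.3 and 71.6 in the mutant. Both were lowest in the mutant at 5d, without overlap with another group.

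**Figure D1:**
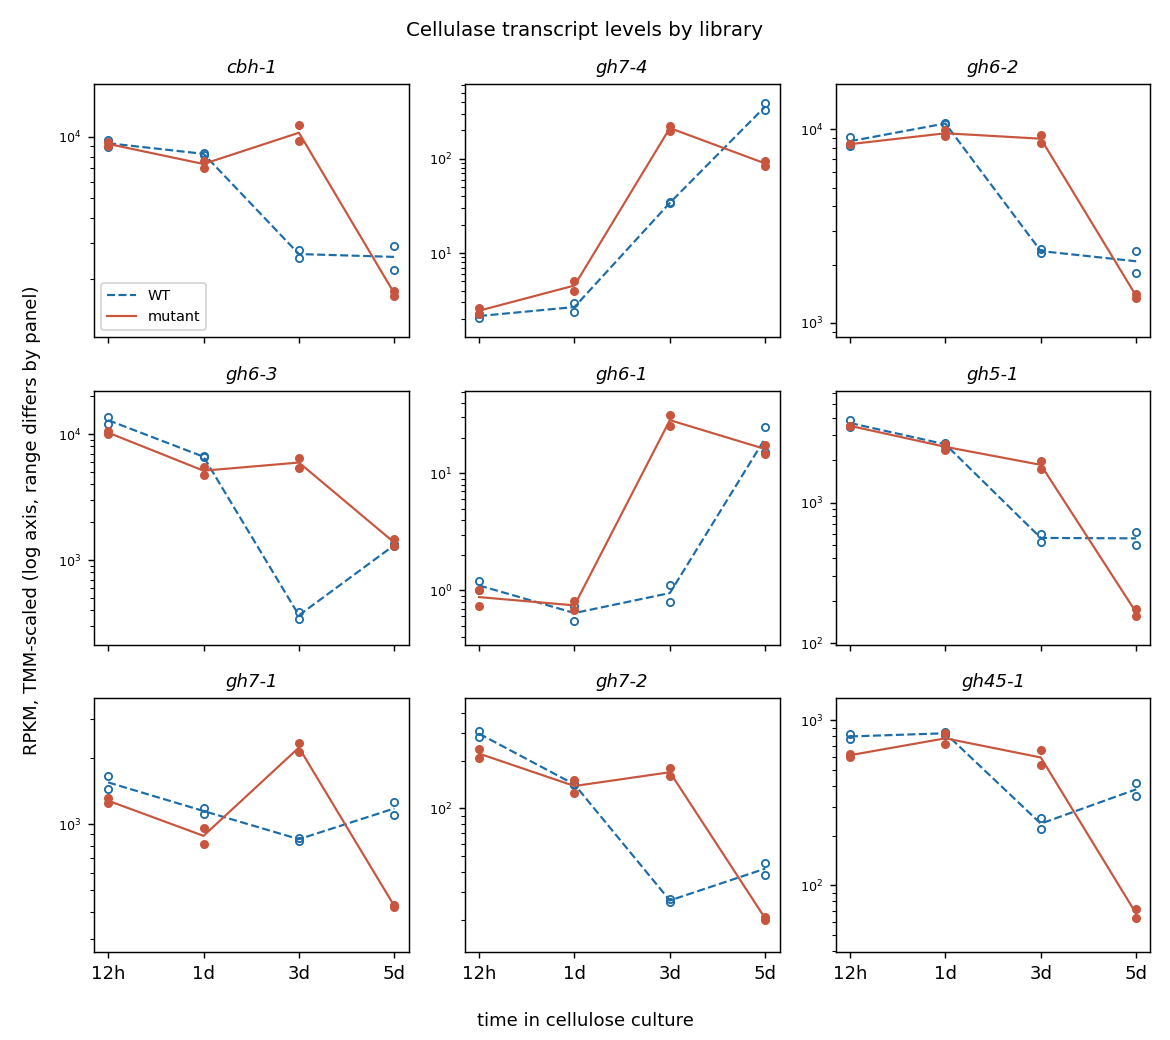
TMM-scaled RPKM (log axis, range set per panel) of each of the 9 cellulase genes against culture time, with every library as a point and dashed (WT) and solid (mutant) lines through the group means. At 3d the mutant lies above WT in all 9 panels, gh7-4 and gh6-1 climb late, and at 5d the mutant is below WT except for overlapping libraries of gh6-3 and gh6-1.

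The question of the design is how the 2 strains differ at each time. Each value below is mutant minus WT on the log2 scale ± SE, from edgeR's quasi-likelihood test fitted to 8983 genes, with Benjamini-Hochberg adjustment over all of them and a threshold of 0.05. All 9 cellulases were among the genes tested.

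At 12h the strains were close. cbh-1 (-0.01 ± 0.111), gh6-2 (-0.05 ± 0.103) and gh5-1 (-0.07 ± 0.105) differed by less than their standard error. Of the 9 genes 0 were higher and 2 were lower, the endoglucanases gh7-2 (-0.42 ± 0.10, edgeR adjusted p = 0.0114) and gh45-1 (-0.38 ± 0.114, adjusted p = 0.0392). Over all genes 6.53% were higher and 6.51% lower, and the median difference was -0.28 for the 9 cellulases and -0.03 for all genes. At an unadjusted p under 0.05, edgeR had 0 cellulases higher and 4 lower, and DESeq2 called the same numbers, 0 and 4, after adjustment. The call of gh45-1 ended without any single one of the 4 libraries (adjusted p from 0.0713 to 0.247), and that of gh7-2 without WT replicate 1 (0.127) or mutant replicate 2 (0.146).

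At 1d the differences were again small. gh7-4 was higher in the mutant (0.74 ± 0.201, edgeR adjusted p = 0.00907), at 4.53 ± 0.753 against 2.68 ± 0.393 RPKM. gh6-3 (-0.37 ± 0.106, adjusted p = 0.0132) and gh7-1 (-0.37 ± 0.0938, adjusted p = 0.00561) were lower. That made 1 of 9 higher and 2 of 9 lower, against 19.1% and 18.0% of all genes, and the other 6 ran from -0.17 (gh6-2, cbh-1) to 0.22 (gh6-1) and did not pass. Each of the 3 calls ended without at least 1 library, namely gh7-4 without WT replicate 1 (0.0852) or mutant replicate 1 (0.0948), gh7-1 without WT replicate 1 (0.0554) or mutant replicate 2 (0.0687), and gh6-3 without WT replicate 1 (0.0682), WT replicate 2 (0.0572) or mutant replicate 2 (0.149). The call of gh6-3 also ended with library totals in place of TMM (adjusted p = 0.0584).

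At 3d all 9 cellulases were called higher in the mutant, against 29.4% of all genes. The libraries of the strains did not overlap for any of the 9, but overlap was not counted over all genes. The median difference was 1.98 for the 9 cellulases and -0.02 for all genes. These differences between the strains, which are not changes with time, varied widely in size. gh6-1 (4.91 ± 0.261, 30.1-fold) and gh6-3 (4.03 ± 0.120, 16.3-fold) were furthest above WT, then gh7-2 (2.68 ± 0.109, 6.41-fold) and gh7-4 (2.63 ± 0.101, 6.20-fold). cbh-1 (1.98 ± 0.115), gh6-2 (1.93 ± 0.106) and gh5-1 (1.73 ± 0.108) followed, and gh7-1 (1.38 ± 0.0952) and gh45-1 (1.33 ± 0.116) differed least. The edgeR adjusted p ran from 9.35e-14 (gh6-3) to 4.69e-08 (gh45-1). The median was 2.63 for the 5 cellobiohydrolases and 1.55 for the 4 endoglucanases.

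At 5d the order of the strains was the opposite for most of them. Lower in the mutant were 7 of 9 and higher 0, against 30.9% and 30.6% of all genes, and the median difference was -1.04 for the 9 cellulases and -0.01 for all genes. For the higher direction edgeR also had 0 at an unadjusted p under 0.05, and DESeq2 called 0. gh45-1 was furthest below WT (-2.50 ± 0.123, 5.66-fold lower), then gh7-4 (-2.01 ± 0.0960, 4.02-fold), gh5-1 (-1.75 ± 0.108, 3.37-fold) and gh7-1 (-1.47 ± 0.0956, 2.77-fold). gh7-2 (-1.04 ± 0.107), gh6-2 (-0.60 ± 0.103, edgeR adjusted p = 0.000116) and cbh-1 (-0.59 ± 0.111, adjusted p = 0.000236) were closer to WT.

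The genes that did not pass at 5d were the GH6 cellobiohydrolases without CBM1, gh6-3 (0.07 ± 0.106, edgeR adjusted p = 0.604) and gh6-1 (-0.31 ± 0.183, adjusted p = 0.155). The 4 endoglucanases were all lower in the mutant than in WT, with a median of -1.61. Of the 5 cellobiohydrolases 3 were lower, and the median of the 5 was -0.59. gh6-1 depended on 1 library. Its replicates in WT were 24.8 and 15.2 RPKM, and without WT replicate 2 its difference was -0.63 (adjusted p = 0.00377).

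**Figure D2:**
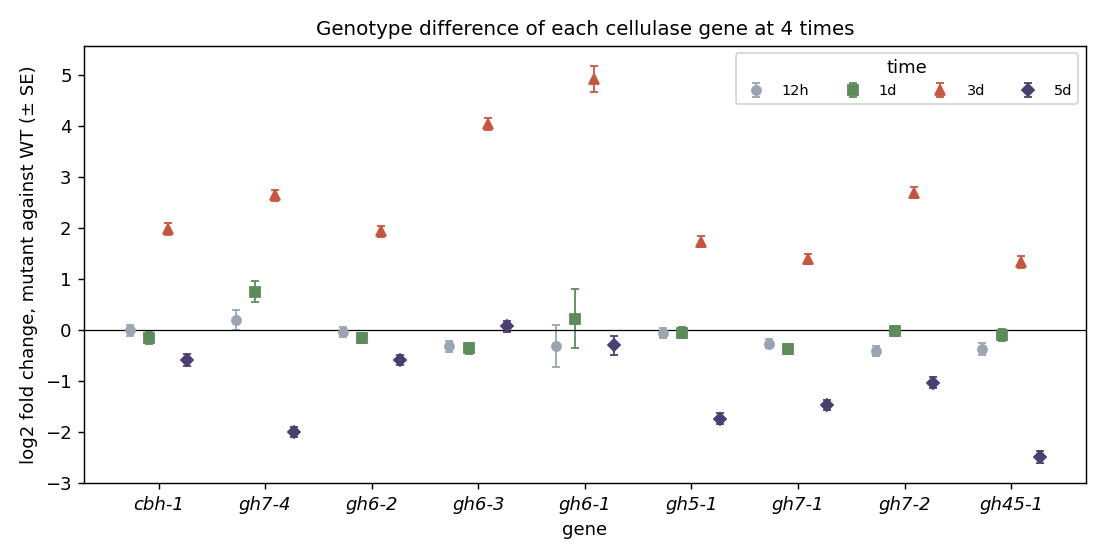
Log2 fold change of mutant against WT (± SE, edgeR) for each cellulase at 12h, 1d, 3d and 5d, with a line at 0. Values lie near 0 at 12h and 1d, from 1.33 (gh45-1) to 4.91 (gh6-1) at 3d, and from -2.50 (gh45-1) to 0.07 (gh6-3) at 5d.

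Markers of conidiation, the formation of asexual spores, also differed between the strains. Most were lower in the mutant at 1d and 3d, and directions were mixed at 5d. The 7 conidial marker genes (eas, con-6, con-8, con-10, con-13, acon-3 and fl) summed to 2019 to 2029 CPM (reads scaled by library size, not by length) in the WT libraries at 3d and 440 to 457 in the mutant. At 5d the sums were 880 to 1392 in WT and 1656 to 1720.4 in the mutant. The sum of the mutant at 5d was mostly con-8, at 1489 ± 55.8 CPM against 450 ± 106 in WT, and other markers were higher in WT: con-10 stood at 151 ± 8.89 against 588 ± 228 CPM and eas at 2.73 ± 1.20 against 39.5 ± 18.4. At 12h they were 416 to 483 in WT and 351 to 486 in the mutant, and at 1d 158 to 191 and 110 to 116. In each group 0 of the 7 markers were at 0. At 1d, when the cellulases were close to WT, 4 of 7 markers were lower in the mutant and 3 did not pass, against 18.0% of all genes lower. At 3d 6 of 7 were lower in the mutant, against 30.0% of all genes, and at 5d 4 were lower and 2 (con-8 and fl) higher, against 30.9% and 30.6%. Their part in the cellulase differences was not tested.

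Whether the strain difference itself changed with time was tested as an interaction in the same edgeR fit. It changed over the 4 times for all 9 cellulases, against 77.5% of all genes. From 12h to 1d it changed for 0 of 9, against 21.7% of all genes, with 1 at an unadjusted p under 0.05 (gh7-2, 0.38 ± 0.143, adjusted p = 0.0663) and 0 called by DESeq2. From 1d to 3d it moved upward for 9 of 9, against 26.2% of all genes, by 1.43 (gh45-1) to 4.70 (gh6-1). From 3d to 5d it moved downward for 9 of 9, against 25.5% of all genes, by -2.52 (gh6-2) to -5.22 (gh6-1). These steps share the libraries at 3d. For gh7-4 the turn was from 2.63 above WT to 2.01 below it, a change of -4.64 ± 0.139 (adjusted p = 4.17e-13).

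In WT alone, the time course split the 9 genes. From 12h to 1d gh7-2 (-1.06 ± 0.102), gh6-3 (-0.96 ± 0.107), gh5-1 (-0.50 ± 0.105) and gh7-1 (-0.43 ± 0.0937) fell and gh6-2 rose (0.31 ± 0.103), that is 4 lower and 1 higher against 30.7% and 26.1% of all genes. From 1d to 3d 7 fell and 1 rose, against 37.1% and 41.9% of all genes. gh6-3 fell most (-4.18 ± 0.121, 18.1-fold), followed by gh7-2 (-2.43), gh5-1 (-2.21), gh6-2 (-2.19), gh45-1 (-1.82) and cbh-1 (-1.63). gh7-1 fell by 0.43, a call that ended with library totals in place of TMM (0.06, edgeR adjusted p = 0.465). gh7-4 rose 12.6-fold (3.66 ± 0.152) in the same step, and gh6-1 did not pass (0.56 ± 0.523). The edgeR adjusted p of these steps ran from 2.26e-14 (gh6-3 from 1d to 3d) to 0.0187 (gh6-2 from 12h to 1d).

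From 3d to 5d 6 of the 9 rose in WT and 0 fell, against 27.1% and 27.5% of all genes. Of the fallers, edgeR also had 0 at an unadjusted p under 0.05 and DESeq2 called 0. gh6-1 (4.40 ± 0.267, 21.1-fold) and gh7-4 (3.39 ± 0.103, 10.5-fold) rose most, and gh6-3 rose 3.61-fold (1.85 ± 0.110). gh45-1 (0.69), gh7-2 (0.67) and gh7-1 (0.46) rose less, and cbh-1 (-0.05), gh5-1 (-0.01) and gh6-2 (-0.17) did not pass. Without WT 5d replicate 1, cbh-1 (-0.25, edgeR adjusted p = 0.0446) and gh6-2 (-0.38, adjusted p = 0.00171) passed as falls. The rise of gh6-2 from 12h to 1d ended without WT 12h replicate 2 (adjusted p = 0.143), WT 1d replicate 1 (0.0670) or WT 1d replicate 2 (0.0758).

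In the mutant the fall of all 9 genes was seen from 3d to 5d. From 12h to 1d 2 rose, gh7-4 (0.88 ± 0.182) and gh45-1 (0.34 ± 0.114), and 5 fell, gh6-3 (2.01-fold lower), gh7-2 (-0.68), gh7-1 (-0.53), gh5-1 (-0.50) and cbh-1 (-0.33), against 21.4% and 19.3% of all genes. From 1d to 3d 5 rose and 2 fell, against 35.6% and 37.0%. The rises were gh7-4 (5.55 ± 0.130, 46.8-fold), gh6-1 (5.25 ± 0.290, 38.2-fold), gh7-1 (1.33 ± 0.0951), cbh-1 (0.51 ± 0.111) and gh7-2 (0.29 ± 0.101), and the falls gh5-1 (-0.43) and gh45-1 (-0.38). gh6-3 did not pass (0.22 ± 0.106, edgeR adjusted p = 0.0798) but did with library totals (0.00337), with DESeq2 size factors (0.0483), with DESeq2 (0.0296) and without mutant 1d replicate 1 (0.0376) or 3d replicate 1 (0.0111). From 3d to 5d 9 of 9 were lower, against 31.2% of all genes, from gh5-1 (-3.49 ± 0.116, 11.2-fold) to gh6-1 (-0.82 ± 0.179, 1.76-fold).

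Several of the small mutant steps depended on 1 library. That of cbh-1 from 12h to 1d ended without any single one of its 4 libraries (edgeR adjusted p from 0.0552 to 0.183), and that of gh45-1 without 3 of them, mutant 12h replicate 1 (0.127), 12h replicate 2 (0.0660) or 1d replicate 1 (0.182). From 1d to 3d the calls of gh45-1 ended without mutant 1d replicate 1 (0.0669) or 3d replicate 1 (0.172), of gh5-1 without 3d replicate 1 (0.0507) and of gh7-2 without 1d replicate 2 (0.201) or 3d replicate 2 (0.152).

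To compare the members with each other inside a library, each was set against cbh-1 as a ratio of RPKM. The size of a ratio rests on the gene lengths, which may not be counted alike. The relative difference of a ratio between the strains does not. The ratio of gh6-2 to cbh-1 changed with time but was close between the strains at each time. Its level was 93.3 ± 1.17% of that of cbh-1 in WT and 90.8 ± 2.56% in the mutant at 12h, 130 ± 1.71 and 130 ± 0.438% at 1d, 88.3 ± 1.94 and 85.7 ± 4.50% at 3d and 80.7 ± 0.0474 and 80.7 ± 0.425% at 5d (mean ± SD, n = 2 libraries). The strain ranges of that ratio overlapped at all 4 times, although the levels of both genes differed 3.93-fold (cbh-1) and 3.81-fold (gh6-2) between the strains at 3d.

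gh6-3 moved apart from cbh-1. It stood at 139 ± 4.92% of cbh-1 in WT and 112 ± 1.30% in the mutant at 12h, and at 80.4 ± 2.02 and 69.7 ± 3.81% at 1d. At 3d it was 13.7 ± 0.466% in WT and 56.9 ± 0.302% in the mutant, and at 5d 52.0 ± 8.92 and 80.8 ± 4.43%. The mutant was below WT at 12h and 1d and above it at 3d and 5d, in each case without overlap.

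gh7-1 and the endoglucanases with CBM1 stood lower against cbh-1 in the mutant than in WT at 3d and 5d. At 5d gh7-1 was 46.1 ± 4.13% of cbh-1 in WT and 24.9 ± 0.574% in the mutant, gh5-1 21.6 ± 0.839 and 9.66 ± 0.401%, and gh45-1 14.9 ± 0.878 and 3.94 ± 0.192%. At 3d the same 3 genes were at 32.1 ± 1.20 and 21.4 ± 1.19%, 21.0 ± 0.520 and 17.7 ± 0.561%, and 8.87 ± 0.465 and 5.67 ± 0.120%. The mutant ratio lay below both WT libraries in all 6 of these cases. Relative to cbh-1, edgeR called 95.8% of all genes lower in the mutant at 3d and 9.82% at 5d (fit described below). A lower ratio at 3d was thus shared by most genes.

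The same contrast was fitted in edgeR with the reads of cbh-1 as library size, over 8982 genes. Every gene is then divided by the same cbh-1 reads, so the error of cbh-1 enters all genes alike. The tests of different genes are thus not independent and the p-values may be too small, so the sizes and ranges carry more weight. At 12h 0 of the 8 other cellulases passed, against 3.65% of all genes, with 4 at an unadjusted p under 0.05 and 2 called by DESeq2. At 1d 1 passed, gh7-4 (0.91 ± 0.215, edgeR adjusted p = 0.00130), against 19.2% of all genes higher, and this call ended without WT replicate 1 (0.0502).

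At 3d 4 were higher relative to cbh-1 and 3 lower, against 1.31% and 95.8% of all genes, whose median was -1.99. Higher were gh6-1 (2.94 ± 0.245), gh6-3 (2.05 ± 0.117), gh7-2 (0.71 ± 0.143) and gh7-4 (0.66 ± 0.147), the members without CBM1 other than gh7-1. Lower were gh45-1 (-0.64 ± 0.139), gh7-1 (-0.59 ± 0.129) and gh5-1 (-0.24 ± 0.120), and gh6-2 did not pass (-0.04 ± 0.106). The call of gh5-1 (edgeR adjusted p = 0.0469) ended without WT replicate 1 (0.172), WT replicate 2 (0.0930) or mutant replicate 2 (0.120) and with gh6-2 as the reference (0.0704).

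At 5d 1 was higher, gh6-3 (0.64 ± 0.113), and 5 were lower, against 61.4% and 9.82% of all genes. The lower ones were gh45-1 (-1.92 ± 0.144), gh7-4 (-1.42 ± 0.147), gh5-1 (-1.16 ± 0.121), gh7-1 (-0.89 ± 0.130) and gh7-2 (-0.45 ± 0.144), and gh6-2 (0.00 ± 0.106) and gh6-1 (0.30 ± 0.184) did not pass. The call of gh7-2 ended without mutant replicate 2 (edgeR adjusted p = 0.0710), and gh6-1 passed without WT replicate 1 (0.47, adjusted p = 0.0450). Library by library, the ranges of the ratio in the 2 strains were apart for 4 of 8 genes at 12h, 6 at 1d and 7 each at the later times, with no adjustment for the number compared. Ranges were not compared over all genes, so these counts cannot show whether the cellulases stand apart from other genes.

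**Figure D3:**
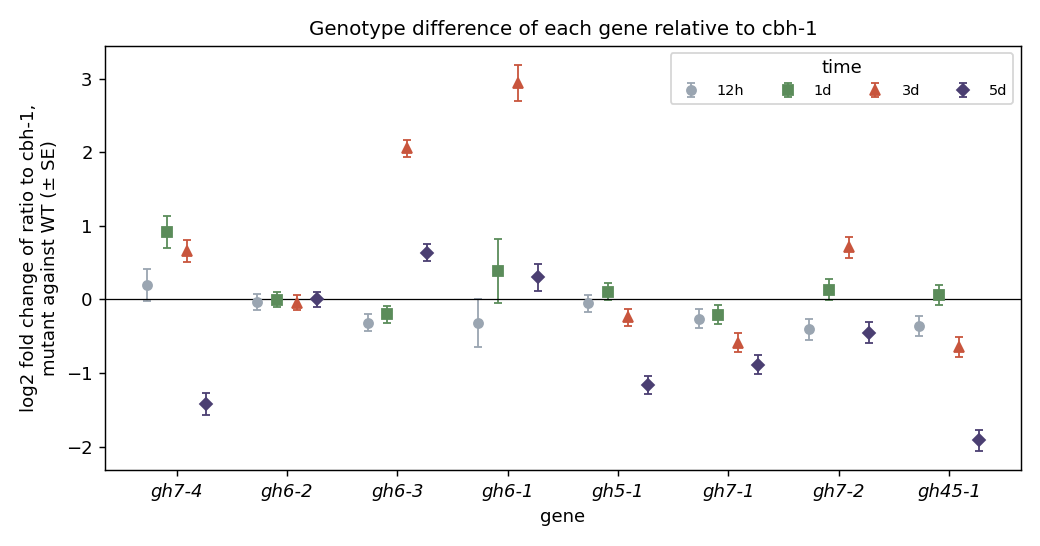
Log2 fold change, mutant against WT, of the ratio of each of the other 8 cellulases to cbh-1 (± SE, edgeR) at 12h, 1d, 3d and 5d, with a line at 0. gh6-2 sits on the line at every time, gh6-1 (2.94) and gh6-3 (2.05) are highest at 3d, and gh45-1 (-1.92) and gh7-4 (-1.42) are lowest at 5d.

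These shifts changed the make-up of the cellulase transcripts, taken as each gene's share of the summed RPKM of the 9. At 12h in WT gh6-3 held 34.7 ± 0.580%, cbh-1 25.0 ± 0.468% and gh6-2 23.3 ± 0.145%, and at 1d gh6-2 led with 35.4 ± 0.106%. By reads, not divided by length, cbh-1 led at both times, with 36.0 ± 0.605% against 32.8 ± 0.612% for gh6-3 at 12h and 40.0 ± 0.566% against 25.9 ± 0.0253% for gh6-2 at 1d. At 3d in WT cbh-1 led with 37.5 ± 0.252%, gh7-1 reached 12.1 ± 0.369% and gh6-3 was down to 5.15 ± 0.210%. In the mutant at 3d gh6-3 still held 19.5 ± 0.505% and gh7-1 7.33 ± 0.260%.

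By class, cellobiohydrolases held 83.0 ± 0.0345, 84.4 ± 0.351, 76.3 ± 0.0669 and 74.6 ± 0.604% of the summed RPKM in WT at 12h, 1d, 3d and 5d. In the mutant they held 83.2 ± 0.498, 83.7 ± 0.221, 84.1 ± 0.260 and 87.1 ± 0.196%. The endoglucanase share was thus larger in WT than in the mutant at 3d and 5d, without overlap. Genes whose product carries a CBM1 held 60.3 ± 0.623, 73.9 ± 0.361, 81.9 ± 0.190 and 65.6 ± 2.57% in WT and 64.8 ± 0.522, 76.6 ± 0.979, 71.8 ± 0.225 and 63.2 ± 0.819% in the mutant. GH6 genes held 58.0 ± 0.435 and 57.2 ± 0.0906% in WT at 12h and 1d, then 38.3 ± 0.301 and 40.2 ± 0.756%, while in the mutant they held between 49.0 ± 0.433% (3d) and 55.7% (12h and 1d).

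**Figure D4:**
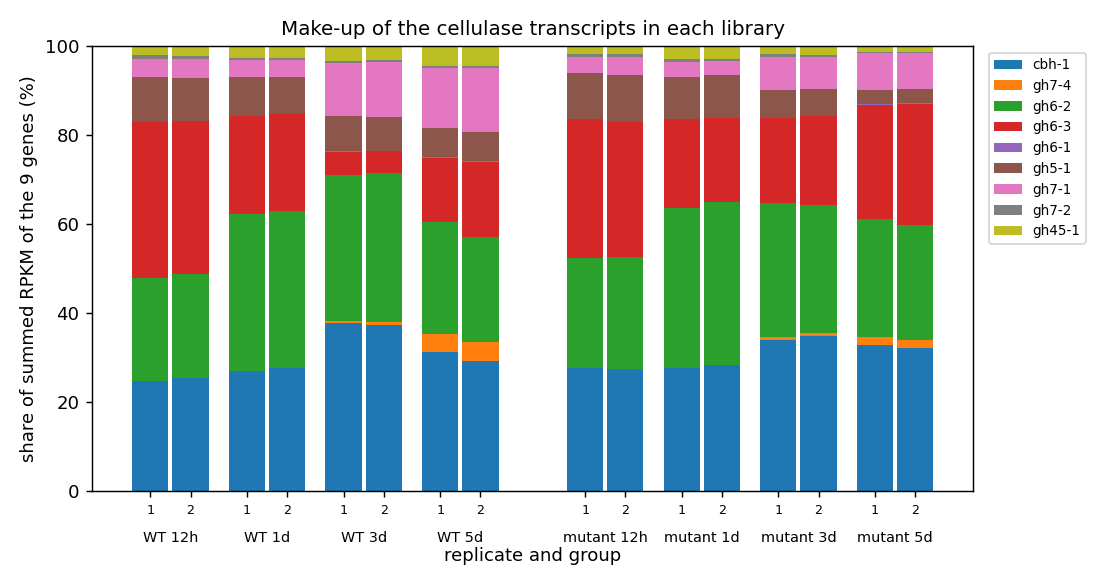
Share of the summed deposited RPKM of the 9 cellulases taken by each gene (stacked bars, percent), with 1 bar per library and the 2 replicates of each group side by side. The gh6-3 segment shrinks in WT from a mean of 34.7% at 12h to 5.15% at 3d, and holds 19.5% in the mutant at 3d.

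Across the 16 libraries, which share the groups and so are not independent points, log2 levels of cbh-1, gh6-2, gh6-3, gh5-1, gh7-2 and gh45-1 were alike, with Pearson's r from 0.70 to 0.98 over their 15 pairs. gh7-4 and gh6-1 were like each other (r = 0.90) and had r from -0.71 to 0.02 with the other 7. gh7-1 lay between, with r from 0.55 to 0.78 to those 6. The correlations describe these libraries and were not tested.

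Among the genes tested outside the 9, the 3 with the highest r to each member over the 16 libraries were as follows. For cbh-1 they were the AA9 monooxygenase gh61-1 (0.98), the cellobiose dehydrogenase cdh-1 (0.98), which feeds electrons to such enzymes, and NCU06652 (0.98). For gh6-2 they were gh61-1, gh61-3 and gh74-1, a family GH74 gene with a CBM1 (0.99 to 1.00). For gh7-2 they were gh61-5, cdh-1 and the esterase gene ce1-1 (0.98 to 0.99). The 3 of gh5-1 were NCU05864, gh61-14 and cdh-1 (0.99). Despite its name, gh61-14 is annotated as family GH131 with a CBM1 and not as AA9. gh6-3 was nearest to NCU01794 and the acetylxylan esterase genes NCU03181 and ce5-2 (0.98).

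The late pair had other neighbours. gh7-4 was nearest to NCU05358, NCU01572 and the kinase gene camk-2 (0.98), and gh6-1 to the copper transporter gene tcu-3 (0.98), the cellobiose dehydrogenase gene cdh-2 (0.96) and NCU02338 (0.96). gh45-1 was nearest to NCU11195, NCU09542 and NCU03285 (0.96). gh7-1 had no gene as near, with 0.90 for NCU09518, annotated as a glucooligosaccharide oxidase, mob-2b and alg-11. Over the 8 group means 5 of these links were no longer among the nearest 3, those of cdh-1 to cbh-1 and gh5-1, ce5-2 to gh6-3, NCU02338 to gh6-1 and NCU09518 to gh7-1.

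The other genes of cellulose use moved partly with the 9 cellulases. Of the 14 AA9 monooxygenase genes 11 were higher and 1 lower in the mutant at 3d, with a median log2 difference of 2.43, and 13 were lower and 0 higher at 5d, with a median of -0.74. Over all genes 29.4% were higher at 3d and 30.9% lower at 5d. At 12h 0 were higher and 5 lower, against 6.53% and 6.51% of all genes, and at 1d 1 and 4, against 19.1% and 18.0%. cdh-1 was higher at 3d (2.69 ± 0.119) and lower at 5d (-1.49 ± 0.115), the same signs as cbh-1. The intracellular beta-glucosidase gene gh1-1 was also higher (0.84) and then lower (-1.03), while gh3-4, an extracellular beta-glucosidase gene, was higher at both times (1.80 and 0.38).

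The regulators did not follow the same course. Of 5 genes (clr-1, clr-2, xlr-1, cre-1 and vib-1) 1 was higher and 1 lower at 12h, 4 higher and 1 lower at 1d, 3 higher and 0 lower at 3d and 3 higher and 0 lower at 5d. The shares of all genes that were higher were 6.53, 19.1, 29.4 and 30.6% at those times, and lower 6.51, 18.0, 30.0 and 30.9%. clr-2 was higher in the mutant at 1d (0.89 ± 0.147), when the cellulases were close to WT, and at 3d (1.39 ± 0.146), and did not pass at 5d (-0.08 ± 0.145, edgeR adjusted p = 0.665), when 7 cellulases were lower. clr-1 had 0.44 at 1d, 0.53 at 3d and 0.05 at 5d, the last not past the test. cre-1 was lower in the mutant at 1d (-1.05 ± 0.186), did not pass at 3d (0.38 ± 0.182) and was higher at 5d (1.67 ± 0.185). The cellodextrin transporter gene cdt-1 was higher at 12h, 3d and 5d (0.52, 0.86 and 0.63), and cdt-2 was higher at 3d (0.30) and lower at 5d (-0.75). Whether any of these differences bears on the cellulases was not tested.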

How the data were processed

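Read counts per gene and RPKM values were deposited by the authors for 9730 genes in 16 libraries, per the file headers. Per the submitters' processing notes, TopHat2 (2.0.8b) and HTSeq (0.5.4p3) were used. The genome build and strand setting are not given in the sources used here. The deposited RPKM equalled count over library total and a fixed gene length for all 146267 values above 0 (relative tolerance 0.001). In 2 libraries, 6 entries that name no gene (6.86% of the reads in WT 3d replicate 2, 4.43% in mutant 5d replicate 1) were left out. Symbols came from the deposited table and from a reference table (NC12), which held 9729 of the loci.

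Counts were tested in edgeR (4.0.16; R 4.3.3). The filterByExpr function left out 747 genes of low count and kept 8983, library sizes were scaled by TMM (factors 0.840 to 1.25), and all 16 libraries entered a single quasi-likelihood fit, 1 mean for each group (8 residual degrees of freedom). P-values were adjusted by Benjamini and Hochberg over all genes. Levels are counts over gene length and TMM-scaled library size. A second fit used the reads of cbh-1 as library size. Shares used the deposited RPKM. Correlations used log2 CPM with a prior count of 2, and the 3 genes nearest to each member are named. The fits were tested on simulated data in which few genes differed between the strains, all at 3d. Many more genes were called at every time in the real data, a case the simulation does not cover.

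Besides the 9 members, the text names stk-12 and matA-1, 10 genes of the pathway, 7 conidial markers and the nearest genes. The members and lists were chosen with earlier results of these data known. Alternatives were DESeq2 (1.42.0), its size factors in edgeR, library totals alone, no filter, a replicate block, gh6-2 as reference, shares of counts and leaving out each library in turn. No pair of replicates agreed within sampling noise, so every library was counted. Depth covers counting error only, and low read numbers add to the spread between 2 libraries for gh6-1 in 5 groups and for gh7-4 at 12h and 1d (41 to 106 reads per library).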

Additional observations from a re-analysis of the deposited data

Results flagged for a closer look

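The difference between the strains itself changed with time for all 9 genes, by the interaction tests in edgeR with Benjamini-Hochberg adjustment. Over the 4 times the adjusted p was 3.54e-09 for cbh-1, 1.88e-12 for gh7-4, 1.74e-09 for gh6-2, 3.01e-12 for gh6-3 and 6.78e-09 for gh6-1. For the endoglucanases it was 1.46e-10 (gh5-1), 3.24e-10 (gh7-1), 2.40e-11 (gh7-2) and 1.38e-10 (gh45-1). Of all genes tested, 77.5% passed the same test.

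From 1d to 3d the log2 difference of mutant and WT moved upward by 2.14 for cbh-1, 1.89 for gh7-4, 2.10 for gh6-2, 4.40 for gh6-3, 4.70 for gh6-1, 1.79 for gh5-1, 1.76 for gh7-1, 2.71 for gh7-2 and 1.43 for gh45-1. From 3d to 5d it moved by -2.57, -4.64, -2.52, -3.96, -5.22, -3.48, -2.85, -3.72 and -3.83 in the same order of genes. The value of gh6-1 has the widest error (SE 0.753 from 1d to 3d), since its libraries at 1d held 9 to 15 reads.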

How the results depend on the processing

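At 3d and 5d, and for the interactions from 1d to 3d and 3d to 5d, the counts of cellulases called stayed within 1.5 times under every alternative run. Small early differences did not. The 2 cellulases called at 12h became 4 with DESeq2, and 0 to 2 when 1 library was left out; at 1d the 3 called became 0 to 2. For the interaction from 12h to 1d, 0 became 2 with library totals and 0 to 1 when 1 library was left out. Relative to cbh-1, 0 at 12h became 2 with DESeq2, and 1 at 1d became 0 to 1 when 1 library was left out. Leaving out 1 library leaves a group with 1, assumed to vary like the others. Over all genes that gave 462 to 1018 calls at 12h (1172 with all libraries), 2108 to 3099 at 1d (3337), 1088 to 2357 for the interaction from 12h to 1d (1945), and relative to cbh-1 146 to 231 at 12h (328) and 1066 to 1586 at 1d (2135). The cause was not tested. Shares of counts, not divided by length, moved the mean share of cbh-1 over the groups from 30.3 to 43.7%.

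The replicate numbers did not pair the samples: same-numbered libraries deviated together with r from -0.145 to 0.0891 over 28 pairs of groups. With a replicate block, 1 cellulase (gh7-2) was called in the interaction from 12h to 1d in place of 0, and gh5-1 relative to cbh-1 at 3d no longer passed (adjusted p = 0.0685).

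Library totals alone moved the median of all genes to 0.18 at 1d, -0.25 at 3d, -0.11 at 5d and 0.59 from 1d to 3d in WT. The genes called higher and lower became 665 and 423 at 12h (587 and 585 with TMM), 3037 and 755 at 1d (1718 and 1619), 1648 and 4249 at 3d (2645 and 2697) and 2046 and 3315 at 5d (2751 and 2779). For the interactions they became 1729 and 449 from 12h to 1d (1099 and 846), 1212 and 4492 from 1d to 3d (2357 and 2434) and 2926 and 1787 from 3d to 5d (2368 and 2295). The WT step from 1d to 3d gave 5467 and 2010 (3765 and 3334), and the mutant steps from 12h to 1d and 3d to 5d gave 2653 and 1117 (1919 and 1734) and 3857 and 2064 (2848 and 2805).

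With library totals these values changed sign: cbh-1 at 12h (0.028), gh45-1, gh5-1 and gh7-2 at 1d (0.056, 0.098 and 0.12), gh6-3 at 5d (-0.036), gh6-3 and gh7-1 in the interaction from 12h to 1d (0.077 and 0.019), gh7-1 from 1d to 3d in WT (0.063), gh5-1 and cbh-1 from 3d to 5d in WT (0.041 and 0.0046) and gh6-2 from 1d to 3d in the mutant (0.010). With DESeq2 size factors or DESeq2 itself, gh5-1 did so in the interaction from 12h to 1d (-0.0097 in both) and from 3d to 5d in WT (0.0049 and 0.0048). Of these, only gh7-1 from 1d to 3d had passed.

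Leaving out 1 library changed the sign of 19 values, none of which had passed. The ranges were -0.15 to 0.020 (gh5-1), -0.12 to 0.026 (gh6-2) and -0.071 to 0.052 (cbh-1) at 12h, -0.22 to 0.0042 (gh45-1), -0.12 to 0.0025 (gh5-1) and -0.18 to 0.096 (gh7-2) at 1d, and -0.63 to 0.089 (gh6-1) and -0.032 to 0.16 (gh6-3) at 5d. In the interaction from 12h to 1d they were -0.080 to 0.089 (gh5-1), -0.16 to 0.068 (gh6-3) and -0.22 to 0.014 (gh7-1). In WT from 3d to 5d they were -0.17 to 0.14 (gh5-1), -0.38 to 0.010 (gh6-2) and -0.25 to 0.14 (cbh-1), and in the mutant -0.45 to 0.0056 (gh6-1, 12h to 1d) and -0.17 to 0.012 (gh6-2, 1d to 3d). Relative to cbh-1, gh6-2 ran from -0.016 to 0.010 at 1d, -0.098 to 0.0092 at 3d and -0.0061 to 0.0047 at 5d.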
